A study of Mus musculus with 9 samples.

Results

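The genes of the mitochondrial ribosome were examined in mammary tumours of *BlgCre-NeuKI* mice, starting from Mrpl9, which was higher in tumours without strong amplification of the *Erbb2/Neu* locus. Members were all genes whose symbol was Mrpl or Mrps followed by a digit. This gave 76 of the 18484 genes in the files, 47 named for the large subunit (Mrpl) and 29 for the small subunit (Mrps). Every member had at least 10 reads in at least 3 of the 8 epithelial tumours and was therefore tested, and none was at 0 in any tumour.

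Mitochondria carry their own ribosomes, which translate the few proteins encoded by mitochondrial DNA. All of these proteins are core parts of the respiratory chain complexes or of ATP synthase. The ribosomal RNAs of this ribosome come from mitochondrial DNA, whereas its proteins are encoded in the nucleus, made in the cytosol and imported, so that many genes scattered over the chromosomes must be expressed in balance. The genes are active in nearly every cell type, mammary epithelium included, and their transcripts are usually more abundant in cells with many mitochondria or rapid growth.

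RNA-seq of total, ribosomal-RNA-depleted RNA was available for 9 snap-frozen tumours, with 1 library per tumour. In all of these mice an activated *Neu* allele was knocked into the endogenous *Erbb2* locus behind a floxed STOP cassette and was switched on by Cre under the *Blg* promoter, which acts mainly in luminal ER- cells. Both alleles were heterozygous and the background was a mix of FVB and C57Bl6; ages were not given in the labels. Adenocarcinomas of no special type, AC(NST), made up the high-amplified group of 5. Virgin mice had given 3 of these (MS1213.1, MS1163.1, MS1163.2) and parous mice the others (MS1218.2, MS1155.3). The not/low-amplified group of 3 was parous throughout and comprised the adenosquamous carcinomas (ASQC) MS1210.1 and MS1349.1 and the AC(NST) MS1166.1. The parous sarcoma MS1156.1, labelled as not or low amplified, was left out of the tests. By their numbers, MS1163.1 and MS1163.2 arose in a single animal, and the copy number of *Neu* in MS1213.1 and MS1218.2 depended on the method the study used. MS1218.2 was also the exception in tumour purity as the study estimated it from these RNA data.

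Depth, as reads counted on genes, was 12501225 to 18327792 for high-amplified tumours, 15265197 to 23912429 for not/low-amplified tumours and 13058738 for the sarcoma. Luminal markers (Krt8, Krt18, Krt19, Epcam, Cdh1 and Elf5) were detected in every epithelial tumour. They summed to 2135 to 3023 CPM (counts scaled to the total of each library) among high-amplified tumours and to 4585 to 7233 CPM among not/low-amplified tumours, but to 25.7 CPM in the sarcoma. MS1218.2 had the highest marker sums of the 8 epithelial tumours for fibroblasts (22070 CPM, others 1597 to 7405), endothelium (636 CPM, others 94.2 to 261) and leukocytes (1135 CPM, others 97.9 to 563). Because these are bulk samples, fewer cells of a type and less RNA per cell cannot be told apart.

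The promoters of 4 members are shown because they belong to the members with the largest changes in either direction. Sequences are from RefSeq, build GRCm38.p6, and each line holds the 150 bases before the annotated transcription start, 5′ to 3′ on the strand of the gene. Capitals mark the motif of NRF1, a transcription factor of nuclear genes for mitochondrial proteins, whose letters can be read there. The search left a base of the motif free, and the letters marked in Mrpl9 and Mrpl12 differ at that base. Only those in Mrpl9 form a palindrome. The windows are chr3:94443186-94443335 on the plus strand, chr11:120484487-120484636 on the plus strand, chr4:49521084-49521233 on the minus strand and chr16:92058186-92058335 on the plus strand.
Mrpl9: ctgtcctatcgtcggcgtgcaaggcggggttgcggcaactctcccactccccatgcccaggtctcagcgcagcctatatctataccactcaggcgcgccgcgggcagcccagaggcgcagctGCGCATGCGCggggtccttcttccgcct
Mrpl12: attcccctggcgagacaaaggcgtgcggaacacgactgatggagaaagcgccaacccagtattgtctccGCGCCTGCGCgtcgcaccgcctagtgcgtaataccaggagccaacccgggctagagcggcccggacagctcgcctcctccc
Mrpl50: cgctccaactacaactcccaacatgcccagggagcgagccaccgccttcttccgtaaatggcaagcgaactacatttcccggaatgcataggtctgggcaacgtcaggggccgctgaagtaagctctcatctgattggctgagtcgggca
Mrps6: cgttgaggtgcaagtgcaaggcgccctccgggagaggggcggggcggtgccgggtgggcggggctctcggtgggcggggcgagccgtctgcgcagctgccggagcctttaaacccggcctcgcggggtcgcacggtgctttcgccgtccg

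The NRF1 motif began 28 bases before the start of Mrpl9 and 81 bases before the start of Mrpl12, the 2 members called below. These letters were not in the windows printed for Mrpl50 and Mrps6. Mrpl43, whose log2 fold change was above that of Mrpl12, is not printed, and the motif was not found for it. In the full windows, which run from 250 bases before to 50 bases after the start, the motif was present in 13 of 73 windows of 67 members, or 17.8%, against 4.60% of all 32851 promoter windows. The letters CCGGAAG, a core bound by GABP and other Ets factors, were present in 32.9% of members' windows and in 8.86% of all windows. AANATGGCG, the core of YY1 sites, was present in 13.7% and 2.38%. All searches covered both strands, and a window could hold more than 1 of the motifs. The median log2 fold changes of members with and without a motif, between the amplification groups described below, were 0.68 and 0.52 for the NRF1 motif, 0.51 and 0.56 for CCGGAAG, and 0.45 and 0.57 for AANATGGCG. A match is a description of the letters and not evidence of binding.

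The members together took a larger share of reads in the not/low-amplified tumours. Of all counted reads, the 76 genes took 0.146% in MS1213.1, 0.153% in MS1155.3, 0.179% in MS1218.2, 0.195% in MS1163.1 and 0.196% in MS1163.2. They took 0.215% in MS1349.1, 0.234% in MS1210.1 and 0.265% in MS1166.1. The groups did not overlap, and the means were 0.174% ± 0.0233 (SD, n = 5) and 0.238% ± 0.0252 (SD, n = 3), a ratio of 1.37. Wilson 95% intervals, which cover counting error alone, were narrow, for example 0.144% to 0.148% in MS1213.1 and 0.263% to 0.268% in MS1166.1. In the sarcoma the share was 0.112%, below that of each epithelial tumour.

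Among the members, the genes named for the large subunit accounted for most of this difference. Subunits with other names, listed further below, were not counted here. High-amplified tumours gave them 0.111% ± 0.0157 (SD, n = 5) of reads and not/low-amplified tumours 0.162% ± 0.0180 (SD, n = 3), with no overlap. For the small-subunit genes the shares were 0.0624% ± 0.00866 and 0.0759% ± 0.00725, and the ranges overlapped, at 0.0540% to 0.0723% against 0.0696% to 0.0839%. The ratio of large-subunit to small-subunit reads was 1.69 to 1.76 in 4 high-amplified tumours, 2.07 in the fifth, MS1218.2, and 2.10 to 2.16 in the not/low-amplified tumours. MS1218.2 thus lay beside the other group in this ratio while its total share lay within its own.

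**Figure D1:**
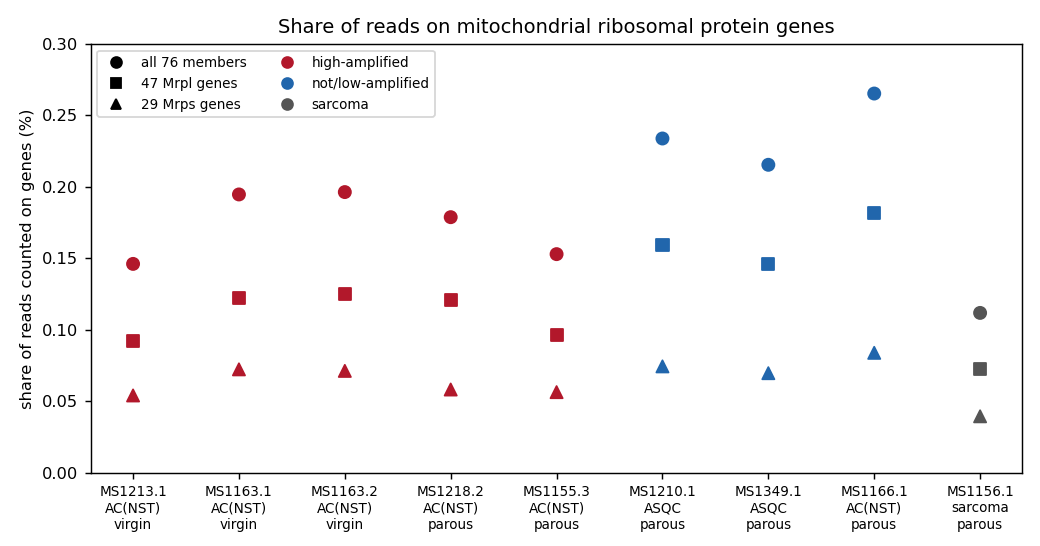
Share of counted reads, in percent (vertical axis, from 0), on all 76 members, the 47 Mrpl genes and the 29 Mrps genes in each of 9 tumours (horizontal axis), coloured by amplification group. Each point is 1 library. The 3 not/low-amplified tumours lie above the high-amplified tumours for all members and for the Mrpl genes, while the Mrps points of the groups overlap.

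Differences between the groups were tested gene by gene with edgeR's quasi-likelihood test over all 14007 genes that passed the filter. A gene was called when its Benjamini-Hochberg adjusted p was under 0.05 and its log2 fold change was over 1 or under -1, and positive values mean higher in not/low-amplified tumours. Of the 76 members, 2 were called higher, Mrpl9 and Mrpl12, against a background of 0.485% of all genes tested. Mrpl9 is the gene from which the question started, so its call restates what was already known of these tumours, and without it the count was 1. Neither call held with the tumours of 1 mouse summed, where 0.0927% of all genes were called higher. Without MS1218.2, 6 members and 3.65% of all genes were called higher, and the part of its cell-type content in this was not tested. None was called lower, where the background was 0.435%. DESeq2 called 5 members higher (background 3.75%), adding Mrpl50, Mrpl43 and Mrpl32, and 0 lower (background 4.91%).

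The direction of Mrpl9 was common in the family, but its size was not. The fitted log2 fold change was above 0 for 71 of 76 members, 46 of 47 Mrpl and 25 of 29 Mrps genes, against 49.0% of all genes tested. An unadjusted p under 0.05 with higher levels was found for 26 members (background 11.0%), of which 19 were Mrpl and 7 Mrps, and with lower levels for 0 members (background 11.8%). In 28 members, 22 Mrpl and 6 Mrps, every not/low-amplified tumour lay above every high-amplified tumour, where the background was 8.04%. No member showed the opposite separation (background 7.55%). The median log2 fold change was 0.54 over the members, a 1.46-fold difference, and -0.02 over all genes tested. It was 0.62 for the Mrpl genes and 0.39 for the Mrps genes. Mrps18a and Mrps30 carry small-subunit names but sit in the large subunit, and Mrps36 is now known as a component of the 2-oxoglutarate dehydrogenase complex. Without these the small-subunit median was 0.36. A log2 fold change over 1 was found for 5 of the 76 members and for 1406 of all 14007 genes tested.

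**Figure D2:**
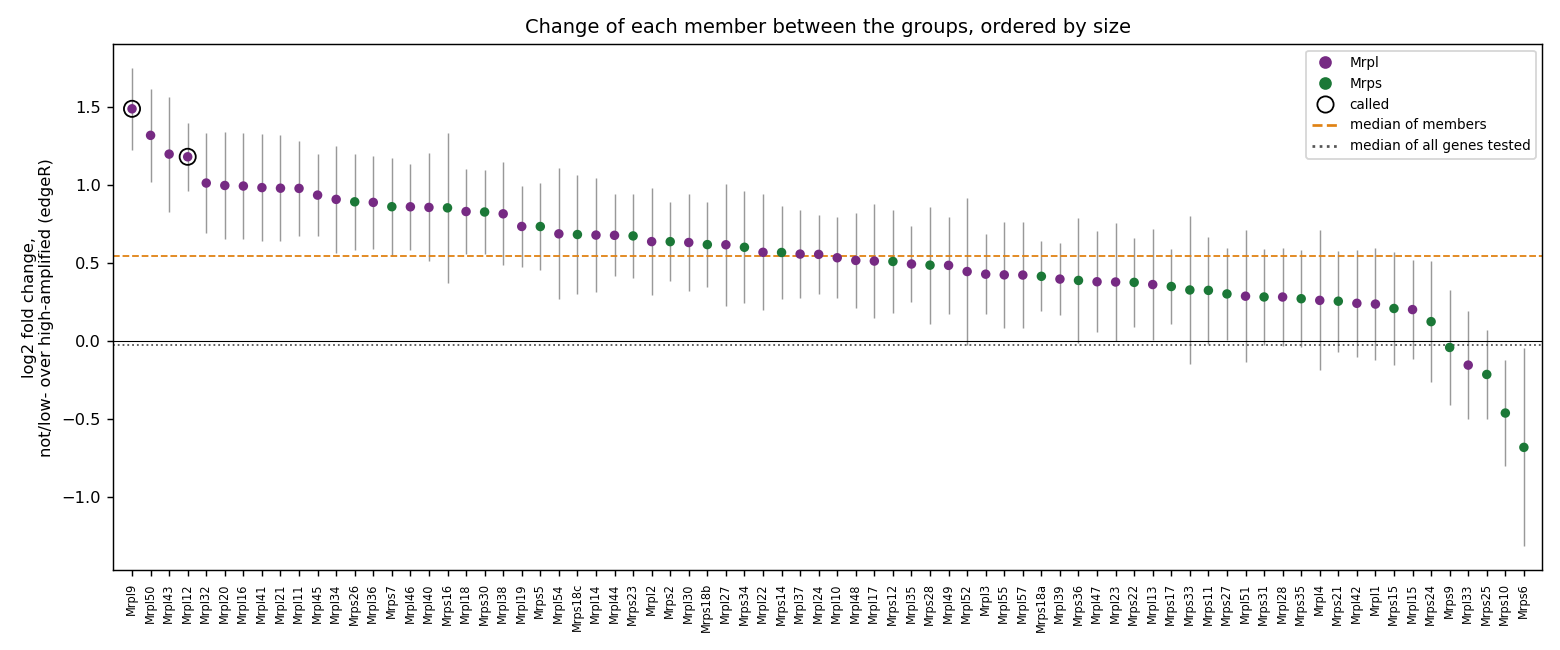
Log2 fold change of not/low- over high-amplified tumours (vertical axis) for each of the 76 members (horizontal axis), ordered by size, from the edgeR fit. Points are estimates, bars are ± 1 standard error, and circles mark the 2 called members. Of the members, 71 lie above 0 and the dashed member median of 0.54 lies above the dotted median of all genes at -0.02.

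Mrpl9, a protein of the large subunit with a bacterial counterpart, had the highest fold change of the family. Its gene (ENSMUSG00000028140) lies at chr3:94443318-94451130 on the plus strand in GRCm38. Normalised counts were 353, 353, 296, 391 and 318 in MS1213.1, MS1163.1, MS1163.2, MS1218.2 and MS1155.3. They were 638, 1098 and 1181 in MS1210.1, MS1349.1 and MS1166.1. The 5 high-amplified tumours were close together and all lay below the 3 others, among which the ASQC tumour MS1210.1 was the lowest. The means were 342 ± 36.4 (SD, n = 5) and 972 ± 293 (SD, n = 3), a log2 fold change of 1.49 (SE 0.26), or 2.80-fold. Because Mrpl9 was chosen for this difference in these tumours, these values are a description, and its edgeR adjusted p of 0.0377 is not independent evidence. By fitted log2 fold change it ranked 674 of all 14007 genes tested. The edgeR call did not hold with parity as a covariate (log2 fold change 1.43, adjusted p = 0.199), with the tumours of 1 mouse summed (1.47, adjusted p = 0.0828) or when 7 of the 8 tumours were left out in turn (adjusted p 0.0695 to 0.100). It held without MS1218.2 (adjusted p = 0.0181).

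Mrpl12 forms the stalk of the large subunit and also binds the mitochondrial RNA polymerase. In the order of tumours given above, normalised counts were 563, 495, 461, 614 and 562 in the high-amplified and 1393, 1146 and 1169 in the not/low-amplified tumours. The lowest not/low-amplified tumour was 1.87 times the highest high-amplified tumour, a wider gap than for Mrpl9, where this ratio was 1.63. The means were 539 ± 60.6 (SD, n = 5) and 1236 ± 136 (SD, n = 3), with a log2 fold change of 1.18 (SE 0.22, edgeR adjusted p = 0.0410). The edgeR call was lost with parity as a covariate (log2 fold change 1.05, adjusted p = 0.215), with the tumours of 1 mouse summed (1.14, adjusted p = 0.0835), with the length offset described below (0.81, adjusted p = 0.109) and without each tumour but MS1218.2 (adjusted p 0.0754 to 0.151).

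The next members by size did not pass the edgeR threshold. Mrpl50, a subunit without a bacterial counterpart, had normalised counts of 196, 238, 364, 226 and 407 against 678, 687 and 798. Its log2 fold change was 1.32 (SE 0.30, edgeR adjusted p = 0.0659), and the 3 not/low-amplified tumours were close to each other and above all others. Mrpl43, also without a bacterial counterpart, had 173, 482, 280, 388 and 175 against 698, 623 and 765 (log2 fold change 1.20, edgeR adjusted p = 0.112). The spread among high-amplified tumours was wide here, with MS1213.1 and MS1155.3 at the bottom. Mrpl32, which is matured by a protease of the inner membrane, had 171, 281, 324, 203 and 201 against 405, 365 and 678 (log2 fold change 1.01, edgeR adjusted p = 0.117). MS1166.1 stood above the other two not/low-amplified tumours. Mrpl20, Mrpl16, Mrpl41, Mrpl21 and Mrpl11, all of the large subunit, followed with log2 fold changes of 0.996, 0.99, 0.98, 0.98 and 0.98 and no overlap between the groups (edgeR adjusted p 0.117 to 0.139).

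The 5 members with a fold change below 0 were mostly of the small subunit, and none reached an unadjusted p under 0.05. Mrps6 had normalised counts of 145, 1152, 452, 233 and 312 in the high-amplified tumours and 191, 252 and 429 in the others. MS1163.1 alone was far above the rest, and the log2 fold change was -0.68 (SE 0.63, edgeR adjusted p = 0.546). Mrps6 shares 10.4% of its exon bases with Slc5a3, an inositol transporter gene on the same strand, so that its counts are uncertain. Mrps10 had 501, 503, 556, 238 and 565 against 286, 300 and 459 (log2 fold change -0.46, edgeR adjusted p = 0.436), with MS1218.2 the lowest of all. Mrps25 (-0.21), Mrpl33 (-0.15) and Mrps9 (-0.04) were also lowest in MS1218.2 of the 8 tumours. For Mrps25, 69.8% of the exon bases are shared with Nr2c2 on the opposite strand, and whether counting used strand is not given in the sources used here. The overlap of Mrpl9 with Oaz3 is 5.81% of its exon bases, and Oaz3 had at most 5.15 normalised counts in a tumour. For Mrpl43, 33.4% of the exon bases are shared with Twnk on the opposite strand.

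Per length, members with the highest levels were not those with the largest changes, apart from Mrpl12. Mean normalised counts per kilobase of exon were highest for Mrpl28 (533), Mrpl12 (522), Mrps21 (506), Mrpl36 (467) and Mrpl54 (438). They were lowest for Mrpl23 (31.1), Mrpl48 (47.9), Mrpl47 (49.98), Mrpl33 (50.1) and Mrps10 (52.7), and Mrpl9 had 214. Exon length here counts every annotated exon, so genes with long alternative exons have low values. Across the 76 members, Spearman's rho of mean normalised count, not divided by length, with log2 fold change was 0.08. This is a description over genes that share the same libraries, and no such value was computed per kilobase.

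Single tumours contributed unequally. MS1166.1, which is AC(NST) without strong amplification, had the highest level of the 8 tumours in 47 members, or 61.8%, against 22.3% of all genes tested. MS1210.1 and MS1349.1, the ASQC tumours, were highest in 8 members each, or 10.5%. This was near their 8.71% and 8.16% of all genes tested. MS1213.1 was lowest in 42 members, or 55.3%, against 13.0% of all genes tested, and no not/low-amplified tumour was lowest in any member. Relative to the mean of the 8 tumours, 73 members were above it in MS1166.1, 64 in MS1349.1 and 63 in MS1210.1. In the high-amplified tumours the numbers were 34 in MS1163.2, 33 in MS1218.2, 32 in MS1163.1, 14 in MS1155.3 and 10 in MS1213.1. The share of all genes above their mean was not computed. Their median log2 ratio to it was between -0.002 and 0.023 in each of the 8 tumours.

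**Figure D3:**
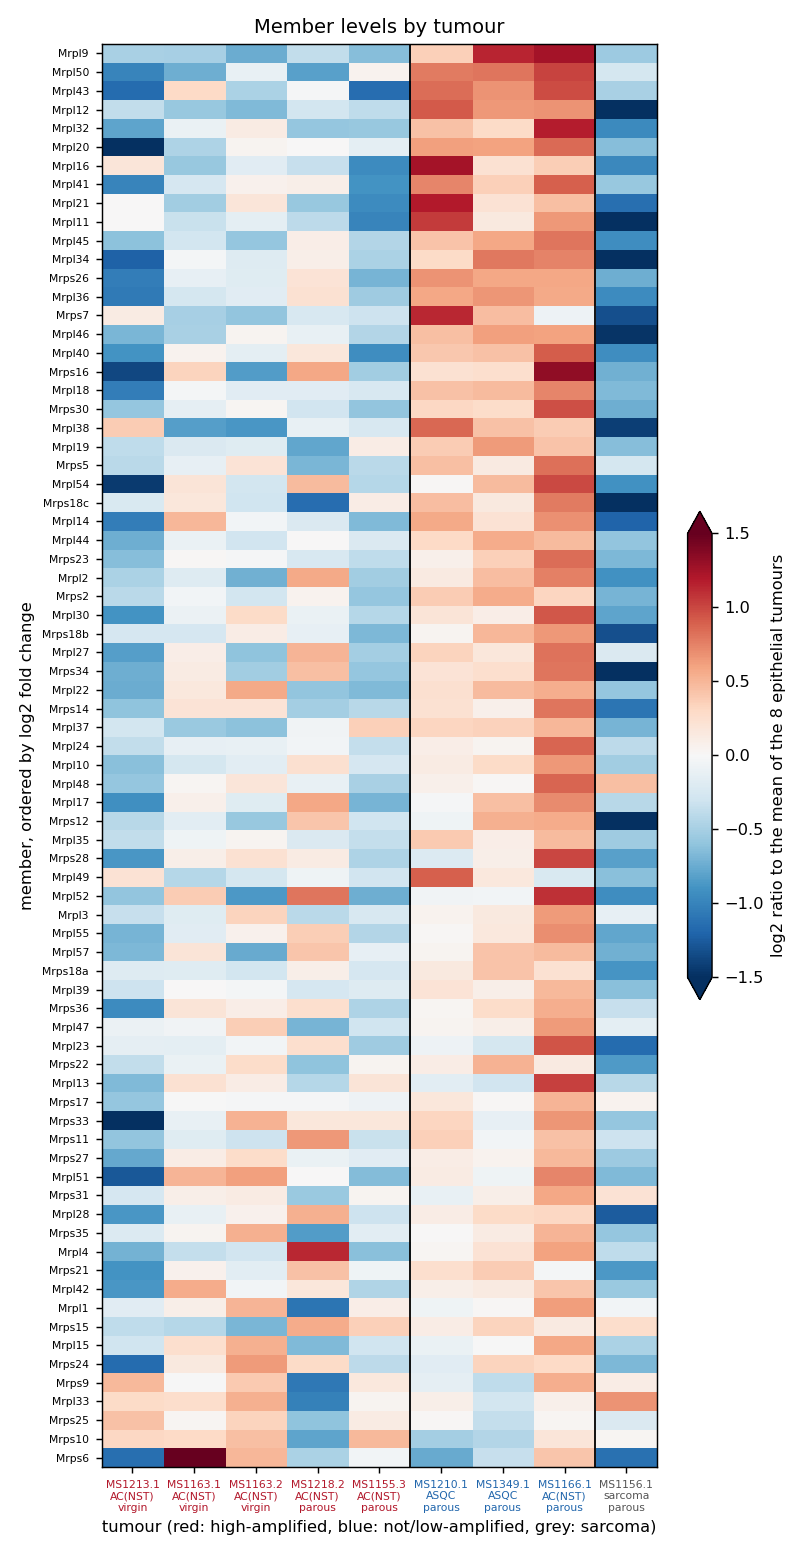
Log2 ratio of each member's level to its mean over the 8 epithelial tumours (colour scale, capped at 1.5 in either direction), with members in rows ordered by log2 fold change and the 9 tumours in columns. Red is above and blue below the mean. MS1166.1 is red in 73 of 76 members and MS1213.1 in 10, and Mrps6 stands out in MS1163.1. Over all genes tested the median log2 ratio was -0.002 in MS1166.1 and 0.023 in MS1213.1.

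Some of the spread followed exon length. The members are short genes, with a median exon length of 2394 bases against 4461 bases over genes tested. In MS1213.1 the level relative to the other tumours was higher for longer members (Spearman's rho 0.49, n = 76), and in MS1218.2 it was lower (rho -0.46). The other high-amplified tumours had values of 0.03, 0.32 and 0.23, and the not/low-amplified tumours -0.22, -0.41 and -0.11. Over all genes tested the values were 0.33 in MS1213.1 and -0.26 in MS1218.2. The other high-amplified tumours, in the same order, had 0.14, 0.30 and 0.30, and the not/low-amplified tumours -0.20 to -0.24. Among high-amplified tumours only MS1218.2 was thus below 0, whereas every not/low-amplified tumour was. These are descriptions across genes of the same libraries. The median log2 fold change between the amplification groups was 0.62 for the 38 shorter members and 0.43 for the 38 longer ones. Over all genes it was 0.37 for the 2557 genes no longer than 2394 bases and -0.10 for the 11421 longer genes. With an offset for a length trend in each library, the member median was 0.34 beside 0.02 for all genes, 66 members were above 0, and Mrpl9 alone was called (log2 fold change 1.28, edgeR adjusted p = 0.0471). RNA quality was not tested.

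**Figure D4:**
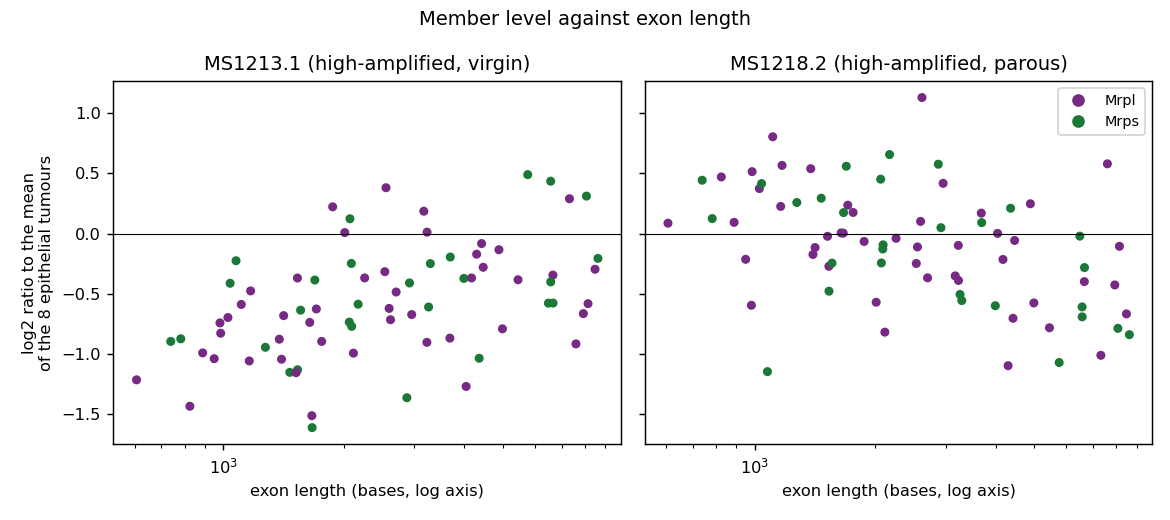
Log2 ratio of each member's level to its mean over the 8 epithelial tumours (vertical axis) against exon length in bases (horizontal log axis) in MS1213.1 and MS1218.2, coloured by subunit. Each point is 1 of 76 members. The trend rises with length in MS1213.1 (rho 0.49) and falls in MS1218.2 (rho -0.46), both high-amplified.

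Position on the chromosome was examined next. The members lie on 17 chromosomes. Around Mrpl9 on chromosome 3, of the 10 nearest genes in the files, 7 were tested and 1, Tuft1, had a log2 fold change above 0 (0.52). The other 6 were below 0, down to -2.07 for Lingo4, with a median of -1.09 over the 7. None of the 7 was called, although 3 had an unadjusted p under 0.05 with lower levels. Around Mrpl12, a set looked at once its values were known, the median was 0.14 over 8 tested genes. On chromosome 19, Mrpl11, Mrpl16, Mrpl21, Mrpl43 and Mrpl49, the last of which was added with its values known, had a median log2 ratio to the mean of 1.05 in MS1210.1 and -0.95 in MS1155.3. All 485 tested genes of that chromosome had medians of 0.54 and -0.39 in these tumours. On chromosome 4, which holds Mrpl20, Mrpl37, Mrpl50 and Mrps15, the median over all 869 tested genes was -0.36, -0.46 and -0.38 in the 3 virgin tumours and 0.22 to 0.33 in the 5 parous tumours. The median log2 fold change by amplification was 0.36 over all genes of chromosome 4 and 0.28 over those of chromosome 19. The part of these chromosome-wide differences in the members' values was not tested.

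The amplification groups differ in other labels, and the family was compared over these as well. All not/low-amplified tumours were parous, and 2 of 3 were ASQC. For ASQC against AC(NST) tumours, edgeR called 0 members (background 0.236%). An unadjusted p under 0.05 was found for 5 members with higher levels (background 4.38%) and 0 with lower (4.33%), and DESeq2 also called 0. The 5 were Mrps7, Mrpl12, Mrpl16, Mrpl21 and Mrpl49, listed after their values were seen. The median log2 difference was 0.23, and Mrpl9 differed by 0.87 (SE 0.53, edgeR adjusted p = 0.672). Both ASQC tumours lay above all AC(NST) tumours in 5 members (background 5.30%), named after their values were seen as Mrps26, Mrpl36, Mrps7, Mrpl38 and Mrps2.

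For parous against virgin tumours, edgeR called 0 members, as it did over all genes (0%), and DESeq2 called 0 members. An unadjusted p under 0.05 was found for 9 members with higher levels in parous tumours (background 8.57%) and 0 with lower (5.60%). With the tumours of 1 mouse summed, 2 members were higher at this threshold, and the share over all genes was not computed. The median log2 difference was 0.43, beside 0.10 over all genes. Over the 2557 genes no longer than 2394 bases, the members' median exon length, it was 0.51, above that of the members. Within the high-amplified tumours, 2 parous and 3 virgin tumours share the amplification label. By their numbers, the virgin tumours MS1163.1 and MS1163.2 arose in a single animal, and they were not summed for this comparison. The copy number of MS1218.2 (parous) and MS1213.1 (virgin) depended on the method, so amplification may still differ here. The member median was 0.05, beside 0.06 over all genes and 0.35 over genes no longer than 2394 bases. In this comparison 0 members were called and 1 was higher at an unadjusted p under 0.05 (background 5.18%). Within the parous tumours alone, the median of not/low- over high-amplified was 0.51, and 0 members and 0% of all genes were called higher. Within AC(NST) tumours, MS1166.1 against the 5 high-amplified tumours gave a median of 0.80, with 72 members above 0 (background 47.5%) and 0 called higher (background 0.243%). MS1166.1 is then assumed to vary like the other group.

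The sarcoma, a single tumour without a replicate, had low levels of the family. After scaling over 9 tumours, 31 of 76 members were below all 8 epithelial tumours (background 20.5%) and 1, Mrpl33, was above all of them (background 21.8%). Mrpl33 had 542 normalised counts against 168 to 489. Mrpl12 was at 234 in the sarcoma against 445 to 1335, whereas Mrpl9, at 328, lay within the epithelial range of 285 to 1137. Fibroblast markers summed to 33271 CPM and skeletal muscle markers to 2639 CPM in the sarcoma, against at most 22070 and 209.6 CPM in an epithelial tumour.

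The medians of lists of other genes of mitochondrial gene expression lay between -0.05 and 0.76, and no gene of these lists was called in either direction. Ribosomal subunits known by other names had a median log2 fold change of 0.76 over 6 genes, 5 of them above 0 and 2 at an unadjusted p under 0.05. The largest changes in this list were those of Chchd1 at 1.01 (edgeR adjusted p = 0.128) and Aurkaip1 at 0.87 (0.253). Those at an unadjusted p under 0.05 were Chchd1 and Ict1, the latter at 0.86 and named after its values were seen. Mitochondrial translation factors had a median of -0.01 over 12 genes, 6 of them above 0. At an unadjusted p under 0.05, 3 were higher and 1 was lower. Tufm, the elongation factor that delivers aminoacyl-tRNA, was at 1.04 (edgeR adjusted p = 0.104) and Guf1, a ribosome-associated GTPase, at -0.87 (0.313). Factors that assemble the ribosome or modify its RNA had a median of 0.22 over 29 genes, with 1 at an unadjusted p under 0.05 and higher. Mpv17l2 was at 0.80 and Ybey at 0.70 in this list, both above an adjusted p of 0.05. Mitochondrial aminoacyl-tRNA synthetases had a median of 0.06 over 17 genes, led by Pars2 at 0.69 and Mars2 at 0.61.

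Genes that copy or transcribe mitochondrial DNA had a median of -0.05 over 10 genes, with Polg2, the accessory subunit of the DNA polymerase, at -1.05 and Tefm, a transcription elongation factor, at 0.67. The 10 genes in the files that are encoded by mitochondrial DNA, whose mRNAs these ribosomes translate, were all above 0 with a median of 0.32 and none at an unadjusted p under 0.05. Of these, mt-Co3 was at 0.65 and mt-Co1 at 0.48. The mt-Co3 level was 40.9 ± 11.9 normalised counts (SD, n = 3) in not/low-amplified tumours against 113112 ± 20744 for mt-Co1, so that the former rests on few reads. Lower still in these tumours were mt-Co2 at 19.6 ± 5.77 and mt-Atp6 at 15.2 ± 3.57, with log2 fold changes of 0.35 and 0.47. The median of 0.32 thus includes genes with few reads. Regulators of mitochondrial biogenesis had a median of 0.09 over 11 genes. The extremes were Ppargc1a, a coactivator of mitochondrial genes, at -1.51 (edgeR adjusted p = 0.295) and Perm1 at 1.30 (0.536). The only regulator with an unadjusted p under 0.05 was Myc, named for this reason after its values were seen, at 1.03 (edgeR adjusted p = 0.0912), with 968 to 1299 normalised counts in the not/low-amplified and 410 to 855 in the high-amplified tumours.

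**Figure D5:**
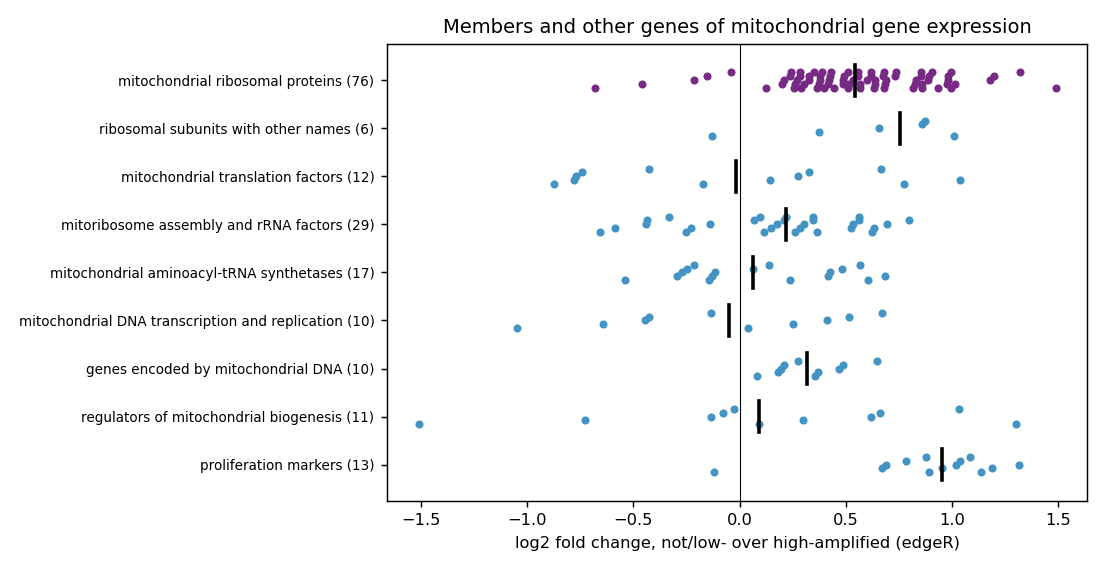
Log2 fold change of not/low- over high-amplified tumours (horizontal axis, edgeR) for the 76 members and for each list of other genes (rows, number tested in parentheses). Each point is 1 gene and each black bar the median of its list. The members' median is 0.54, that of ribosomal subunits with other names 0.76 and that of proliferation markers 0.95. The median of translation factors is -0.01, with 6 of 12 genes above 0.

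Markers of proliferation and of cell types were measured beside the family. None was called, and the luminal sums alone did not overlap between the groups. The 13 proliferation markers had a median log2 fold change of 0.95, 12 were above 0 and 6 had an unadjusted p under 0.05 with higher levels. Aurkb was at 1.31 and Birc5 at 1.19. Their summed level was 470 to 1653 CPM in the high-amplified and 997 to 1714 CPM in the not/low-amplified tumours, so the groups overlapped. All 6 luminal markers were above 0, with a median of 0.93 and Krt19 at 3.38, and their summed levels are given above. Basal markers summed to 63.6 to 689 CPM and 387 to 3414 CPM, with 3 of 5 above 0, Krt14 at 4.92 and Krt5 at 2.12, while Acta2 and Oxtr, named for their direction, were at -1.22 and -0.38. Squamous markers summed to 1.04 to 27.6 CPM and 4.13 to 1065 CPM, and Krt6a and Krt10 were the only members tested. All 6 fibroblast markers were below 0, among them Col3a1 at -1.67 and Col1a2 at -1.11, with summed levels of 2627 to 22070 CPM and 1597 to 6119 CPM. Endothelial markers summed to 144 to 636 CPM and 94.2 to 261 CPM, with 1 of 4 above 0, Cdh5 at -0.75 and Kdr at -0.56. Leukocyte markers summed to 209.8 to 1135 CPM and 97.9 to 563 CPM, with 2 of 6 above 0, Cd68 at -0.92 and Csf1r at -0.74. Skeletal muscle markers were at most 209.6 and 12.4 CPM and adipocyte markers at most 61.7 and 33.0 CPM. The part of cell-type content and of proliferation in the members' difference was not tested.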

How the data were processed

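RNA from 9 mammary tumours was sequenced by the authors, with 1 library per tumour, from ribosomal-RNA-depleted total RNA and a strand-specific kit. Per the paper's methods, reads were aligned with STAR to mouse build 38, multiply mapping reads were discarded, and reads per gene were counted with HTSeq-count. Versions and the strand option of counting are not given in the sources used here. The deposited count values are whole numbers with a different total in each tumour and were taken as raw counts. The deposited signal values, held for 8 epithelial tumours, equal these counts over 1 DESeq2 size factor per tumour (0.776 to 1.42), and are called normalised counts here. For the sarcoma, size factors were computed over all 9 tumours.

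Groups came from the sample labels. Each tumour was a replicate, and p-values measure the spread between these tumours. Genes that reached 10 counts in 3 or more of 8 tumours were tested with edgeR 4.0.16 in R 4.3.3 (TMM, quasi-likelihood, common biological coefficient of variation 0.534), without covariates. The study used DESeq2, here an alternative in version 1.42.0, as was limma 3.58.1 on log2 values. P-values were adjusted over all 14007 genes tested, and the scripts were tested on simulated data. Exon lengths and positions came from GENCODE M21 (GRCm38), which held 18420 of the 18484 genes. Promoter windows were from RefSeq. Other alternatives were the scaling, low-count filter, pseudocount, parity as a covariate, offsets for length and GC content, subsets of tumours, and each tumour left out in turn.

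The members and lists were chosen with earlier results of these data known. Named members were Mrpl9, those called, the 5 with the largest change in each direction, the 5 highest and 5 lowest per kilobase, the 10 with the largest change among those without overlap between groups, and up to 5 with a tumour standing apart. From each other list the 2 genes with the largest absolute change are named. At these depths, shares of reads have narrow counting intervals.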

Additional observations from a re-analysis of the deposited data

Results flagged for a closer look

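A tumour was far from the other 4 in the high-amplified group, by Dixon's test, in 8 of 78 sets of 5 values. The test flags about 5% of independent sets by chance. These sets come from the same 5 libraries and are not independent, so this rate gives no expectation for the count. The share over all genes was not computed. Of the 8 flagged sets, 5 concerned MS1218.2, the tumour with the highest fibroblast, endothelial and leukocyte marker sums of the 8 epithelial tumours. MS1218.2 was the highest of the 8 epithelial tumours in 20.0% of all genes tested and the lowest in 21.6%. Its normalised counts were the highest for Mrpl4 (1005.3, others 274 to 372), Mrps18a (557, others 426 to 457) and Mrps11 (463, others 192 to 257), and the lowest for Mrps10 (238, others 501 to 565). Its ratio of large-subunit to small-subunit reads was 2.07, above 1.69 to 1.76 in the others. MS1213.1 was the lowest for Mrps17 (443, others 631 to 664) and for Mrpl18 (236.9, others 416 to 485), the latter named outside the rule because of this result. MS1163.2 was the highest for Mrpl3 (902, others 554 to 638). Exons of Mrps11 and Mrpl46 share 173 bases on opposite strands.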

How the results depend on the processing

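The number of members called by amplification status was 2 with edgeR, where 0.485% of all genes were called higher. It was 5 with DESeq2 (3.75% of all genes), 1 with the length offset (0.608%), and 0 with parity as a covariate, with the tumours of 1 mouse summed, in AC(NST) tumours alone, in parous tumours alone and with the sarcoma added, where 0% to 0.243% of all genes were called higher. Leaving out each tumour gave 0 to 6: 6 without MS1218.2 (3.65% of all genes), and 0 without each of MS1213.1, MS1163.1, MS1163.2, MS1155.3, MS1210.1, MS1349.1 and MS1166.1 (0.00723% to 0.488% of all genes). The median log2 fold change of members, 0.54, kept its direction in all 22 alternatives. It was 0.80 in AC(NST) tumours alone, 0.34 with the length offset and 0.42 to 0.66 when each tumour was left out, while the median of all genes stayed between -0.08 and 0.09. The log2 fold change of Mrpl9, 1.49, was also above 0 in all 22, but was no longer called with parity as a covariate (1.43), with the tumours of 1 mouse summed (1.47), in AC(NST) tumours alone (1.81), in parous tumours alone (1.40) and with the sarcoma added (1.23). Leaving out each tumour gave 1.34 to 1.74, called only without MS1218.2. Over all alternatives its adjusted p ranged from 5.11e-05 (DESeq2) to 0.406 (parous tumours alone). Subsets hold fewer tumours, and the cause of the other losses was not tested. Over the same alternatives, 3 to 37 members had an unadjusted p under 0.05 with higher levels, the fewest with the sarcoma added. Above 0 were 66 to 72 members, against 46.6% to 55.9% of all genes. Calls by histotype and by parity were 0 in every alternative run, with 0 to 18 and 2 to 23 members higher at an unadjusted p under 0.05. The 18 came without MS1166.1, where ASQC against AC(NST) is the same split as not/low- against high-amplified. For these alternatives the shares over all genes at an unadjusted p under 0.05 were not computed. By CPM, 43 members of the sarcoma lay below all epithelial tumours, against 31. The share of all genes below by CPM was not computed, so the 43 has no background beside it. The 28 members without overlap between groups became 29 to 36 when each tumour was left out, an alternative chosen after seeing the data. Leaving out a tumour cannot lower this count, so its rise is no check of the separation. The share over all genes was not computed for these subsets. No paired analysis was possible because the labels give no replicate numbers shared between groups. Depth and the number of tumours were not varied on their own.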
